A study of Mus musculus with 12 samples.

Results

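Mcpt8, Ms4a2, Hdc and Il6ra are 4 genes grouped as mast cell and basophil genes, out of 9984 genes with a value in arrays of sorted mouse bone marrow cells. They were listed by symbol, and each is represented by the single probe set that carries its symbol, so that for none of them was a choice between probe sets needed. The 4 genes were chosen by their measured values in multipotent progenitors (MPPs) with and without Erg, which encodes a DNA-binding protein of the ETS family that blood stem cells need. Their differences in MPPs are therefore given as a description, without a test. Expression was measured in 12 arrays, 3 for each of 4 groups. Erg -/- MPPs came from mice in which Mx1-Cre had removed the floxed exon 11 of Erg, and Erg fl/fl MPPs from mice without Cre. With or without Cre, these mice were injected 5 times with pIpC, an RNA mimic whose interferon response switches on Mx1-Cre, and their marrow was taken 2 weeks after injections began. Erg +/- hematopoietic stem cells (HSCs) came from mice that had lost 1 Erg allele through a general deleter Cre, and Erg +/+ HSCs from wild-type mice. The labels of the HSC groups name no pIpC. All mice were males on a C57Bl/6 background of at least 6 generations, and the labels do not say whether animals were pooled. HSCs were sorted as Lineage-, Sca-1+, c-kit+, CD150+, CD48- cells. The labels disagree on the MPP gate, which is CD150- in the sorting field and CD150+, CD48- in the source field. Erg +/- HSCs are titled as knock-outs although their genotype field is heterozygous, and that field was followed.

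Mast cells and basophils are granulocytes of allergic and antiparasitic responses. Both carry the high-affinity IgE receptor, and on activation they release histamine and proteases stored in granules. They arise from bone marrow progenitors, and transcripts of their lineage can be found in progenitors before the mature cells form. Mcpt8 encodes mast cell protease 8, a granule serine protease that in mice marks basophils. Ms4a2 encodes the beta chain of the high-affinity IgE receptor, which amplifies its signal. Hdc encodes histidine decarboxylase, the enzyme that makes histamine. Il6ra encodes the ligand-binding chain of the interleukin 6 receptor, which is used by many blood and other cells and is not restricted to mast cells or basophils.

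In the mouse assembly GRCm38.p6 the RefSeq table places Mcpt8 at chr14:56082163-56085499, Ms4a2 at chr19:11615517-11623790, Hdc at chr2:126593659-126624025 and Il6ra at chr3:89869324-89913196. RefSeq's promoter table holds a window of 250 bases before 1 transcript start of each gene, which need not be the outer end of the gene. The Mcpt8 and Hdc windows lie wholly inside the gene spans above, the Ms4a2 window overlaps the end of its span, and the Il6ra window lies directly before its span. The windows are shown for Mcpt8, the gene with the largest differences, and for Ms4a2, the other gene of mast cell and basophil effector function on the cell surface. Both are read 5′ to 3′ from the minus strand, Mcpt8 at chr14:56085198-56085447 and Ms4a2 at chr19:11623720-11623969. Capitals mark GGAAG, a core of ETS-type motifs, and GATAA, a core of GATA-type motifs, searched on both strands (their reverse complements are CTTCC and TTATC).
Mcpt8: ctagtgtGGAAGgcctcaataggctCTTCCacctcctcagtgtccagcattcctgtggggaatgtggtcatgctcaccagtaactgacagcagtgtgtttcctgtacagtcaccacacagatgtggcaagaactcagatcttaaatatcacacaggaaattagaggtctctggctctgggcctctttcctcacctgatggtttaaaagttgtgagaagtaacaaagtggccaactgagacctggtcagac
Ms4a2: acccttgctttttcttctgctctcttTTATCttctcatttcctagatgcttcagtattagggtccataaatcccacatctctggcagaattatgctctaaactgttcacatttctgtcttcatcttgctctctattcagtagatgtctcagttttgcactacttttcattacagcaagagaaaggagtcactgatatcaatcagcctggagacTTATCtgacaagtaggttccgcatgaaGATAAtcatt
The Mcpt8 window held GGAAG 2 times and GATAA 0 times, and the Ms4a2 window held GATAA 3 times and GGAAG 0 times. The Hdc window held GGAAG 1 time and GATAA 0 times, and the Il6ra window GGAAG 2 times and GATAA 1 time. The motifs did not overlap in any of the 4 windows. Over the 32851 windows of the RefSeq promoter table, 64.1% held GGAAG and 22.6% held GATAA. A match of 5 letters is a description of the sequence and not a binding site.

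The arrays had similar medians, between 5.41 and 5.54 on the log2 scale over 18719 probe sets. Their 25th percentiles differed by population, at 4.17 to 4.26 in MPP arrays and 3.98 to 4.09 in HSC arrays. Dim probe sets thus sat higher in MPP arrays, and the part of this in differences between MPPs and HSCs was not tested. Within groups Pearson r between arrays was 0.953 to 0.974 (9984 genes). The values are log2 expression values from RMA, which compresses differences of dim probe sets, and the deposited table carries no detection calls. Ms4a2 lay under the 25th percentile of its array on 11 of 12 arrays. Mcpt8 lay under the array median on 9 of 12 arrays, Hdc on 11 and Il6ra on 0. As a check of the label, of 7 further mast cell and basophil markers 2 had a value, Gata1 and Cd200r3. Cd200r3, a basophil and mast cell surface receptor, lay between 2.72 and 3.50 and under the 25th percentile on all 12 arrays, and the mast cell genes Mcpt1 and Mrgprb2 did so too. Gata1, a transcription factor shared by mast cells, basophils, red cells and megakaryocytes, lay between 5.39 and 6.30. The 4 genes are therefore described by name and not as evidence of mature mast cells or basophils in the sorts.

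The first comparison set MPPs lacking Erg against MPPs that keep it. Mcpt8 was at 5.26, 4.92 and 4.70 in the 3 Erg -/- MPP arrays, against 9.16, 7.21 and 9.13 in the 3 Erg fl/fl MPP arrays (log2 values, replicates 1 to 3). All Erg -/- arrays lay below all Erg fl/fl arrays, and Erg fl/fl replicate 2 lay well below the other Erg fl/fl arrays. Its mean was 4.96 ± 0.284 in Erg -/- MPPs and 8.50 ± 1.11 in Erg fl/fl MPPs (SD, n = 3 each), a difference of -3.54 on the log2 scale (SE 0.403) or 11.6-fold lower. Of the 9984 genes 1, the pre-B cell gene Vpreb1, had a larger negative difference. With 1 MPP array left out the difference of Mcpt8 ran between -4.18 and -3.21.

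Ms4a2 was at 4.11, 3.97 and 3.66 in Erg -/- MPPs, against 5.45, 4.20 and 4.02 in Erg fl/fl MPPs. The groups overlapped, and Erg fl/fl replicate 1 stood apart above the other arrays. The means were 3.92 ± 0.229 in Erg -/- MPPs and 4.56 ± 0.783 in Erg fl/fl MPPs, a difference of -0.64 on the log2 scale (SE 0.313). The size of that difference rests on 1 array, as it was -0.19 without Erg fl/fl replicate 1.

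Hdc was at 5.33, 5.33 and 4.84 in Erg -/- MPPs, against 5.52, 5.25 and 5.82 in Erg fl/fl MPPs. The groups overlapped, since Erg fl/fl replicate 2 lay below Erg -/- replicates 1 and 2. The difference was -0.37 on the log2 scale (SE 0.199), and it was -0.20 without Erg -/- replicate 3 and -0.22 without Erg fl/fl replicate 3. Il6ra was at 6.38, 6.13 and 6.27 in Erg -/- MPPs, against 6.22, 6.11 and 6.19 in Erg fl/fl MPPs. These values overlapped throughout, with a difference of 0.09 on the log2 scale (SE 0.217).

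Of the 4 genes, 1 thus had MPP groups that did not overlap. Over all genes, 6.1% had Erg -/- MPP arrays wholly below Erg fl/fl MPP arrays and 4.36% wholly above, and 0.0801% passed the threshold of the test, all in the lower direction (limma, Benjamini-Hochberg adjusted p under 0.05 over 9984 genes). Nothing is read from these shares for the 4 genes, which were chosen with this comparison known. Erg -/- and Erg fl/fl MPPs also differ in Mx1-Cre, which cannot be told apart from the genotype. In a bulk sample, fewer cells of a type and less RNA per cell cannot be told apart either.

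**Figure D1:**
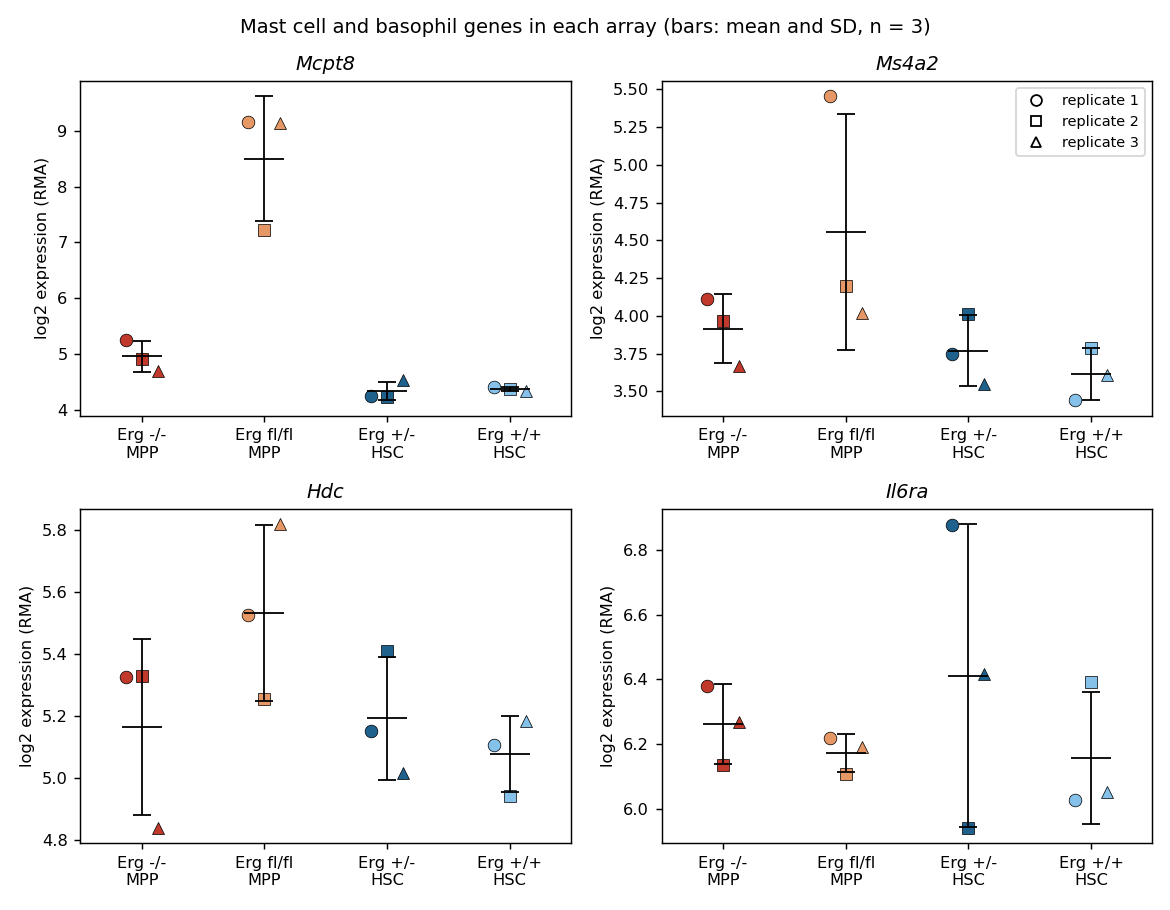
Log2 expression (RMA) of Mcpt8, Ms4a2, Hdc and Il6ra in each of the 12 arrays, with a panel per gene on its own vertical scale. Points are arrays (shape gives the replicate number), horizontal bars are means and vertical bars are SD (n = 3). The Erg fl/fl MPP arrays of Mcpt8 lie between 7.21 and 9.16, above all other arrays, and the high mean of Ms4a2 in Erg fl/fl MPPs comes from the replicate at 5.45.

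The second comparison asked whether the loss of 1 Erg allele changes the 4 genes in HSCs. The HSC arrays are not those of the MPP comparison, so the genes were tested here, although they were chosen with results of all 4 groups known. The standard errors come from the model over all 12 arrays and so include the spread of the MPP arrays. Mcpt8 was at 4.24, 4.24 and 4.54 in Erg +/- HSCs, against 4.41, 4.38 and 4.34 in Erg +/+ HSCs. The groups overlapped, with a difference of -0.04 on the log2 scale (95% interval -0.91 to 0.84; limma, adjusted p = 0.993). That interval excludes a rise as large as the MPP difference, and holds smaller differences in either direction. Mcpt8 was already dim in Erg +/+ HSCs, with a mean of 4.38 and all 3 arrays under their median. A fall as large as that between the MPP groups had no room there, as the lowest value of any probe set was 0.94. The interval therefore cannot tell whether the loss of 1 Erg allele would lower Mcpt8 where it is high. With the 6 HSC arrays alone the standard error of Mcpt8 was 0.156 in place of 0.403 (limma, adjusted p = 0.984).

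Ms4a2 was at 3.75, 4.01 and 3.55 in Erg +/- HSCs, against 3.44, 3.79 and 3.61 in Erg +/+ HSCs, a difference of 0.16 (95% interval -0.52 to 0.84; limma, adjusted p = 0.98). Hdc was at 5.15, 5.41 and 5.02 in Erg +/- HSCs, against 5.11, 4.94 and 5.18 in Erg +/+ HSCs, a difference of 0.12 (95% interval -0.32 to 0.55; limma, adjusted p = 0.98). Il6ra was at 6.88, 5.94 and 6.42 in Erg +/- HSCs, against 6.03, 6.39 and 6.05 in Erg +/+ HSCs, a difference of 0.26 (95% interval -0.22 to 0.73; limma, adjusted p = 0.927). The 3 Erg +/- values of Il6ra spread over 0.94 log2 units, the widest spread of that gene in any group, and the difference was 0.02 without Erg +/- replicate 1 and 0.49 without Erg +/- replicate 2. For all 4 genes the groups overlapped, and 0 of the 4 passed the threshold or had an unadjusted p under 0.05. Over all genes 0.02% passed in HSCs (0.01% lower and 0.01% higher), 6.32% had an unadjusted p under 0.05 and 10.4% had groups that did not overlap.

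**Figure D2:**
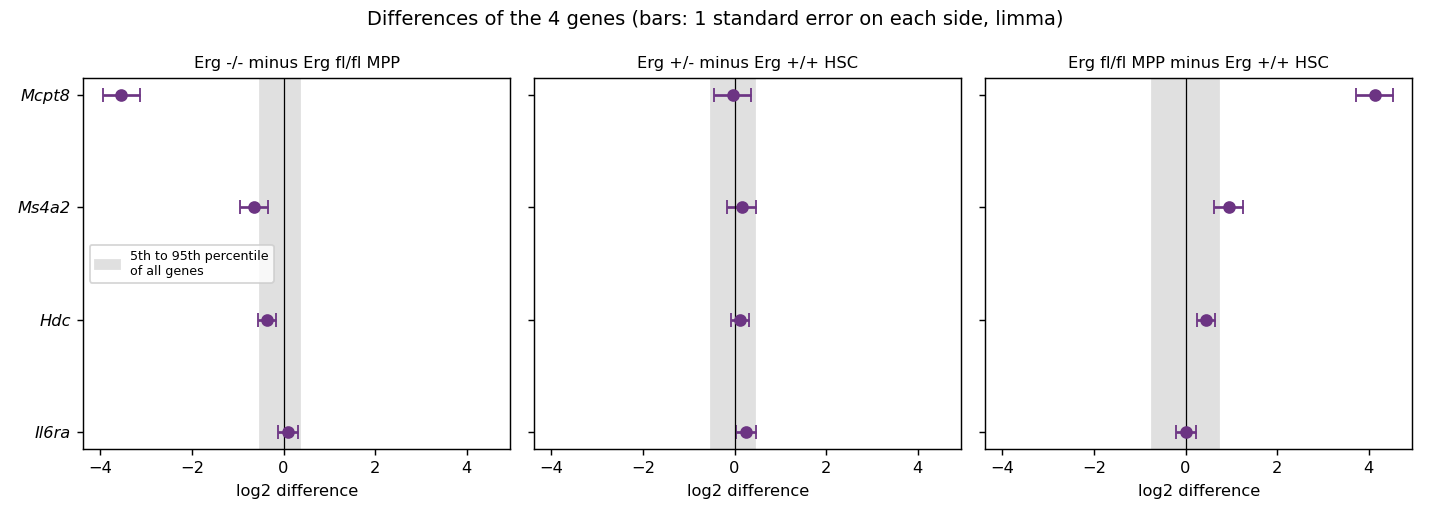
Log2 differences of the 4 genes, Erg -/- minus Erg fl/fl MPPs (left), Erg +/- minus Erg +/+ HSCs (middle) and Erg fl/fl MPPs minus Erg +/+ HSCs (right). Points are differences, bars are 1 limma standard error on each side, and the grey band holds the 5th to 95th percentile of all 9984 genes. Mcpt8 lies at -3.54 in the left panel, at -0.04 in the middle and at 4.13 on the right, and Il6ra lies within the band in all 3 panels.

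The order of the group means shows where each gene is high. Mcpt8 was highest in Erg fl/fl MPPs, at 8.50 ± 1.11, followed by Erg -/- MPPs at 4.96 ± 0.284, Erg +/+ HSCs at 4.38 ± 0.0369 and Erg +/- HSCs at 4.34 ± 0.169 (SD, n = 3 each). The 2 HSC groups overlapped. The lowest Erg -/- MPP array was at 4.70 and the highest HSC array at 4.54, where dim probe sets sat higher in all MPP arrays. The share of all genes apart in this way was not computed, so nothing is read from that order. Ms4a2 had the order Erg fl/fl MPPs, Erg -/- MPPs, Erg +/- HSCs and Erg +/+ HSCs, at 4.56, 3.92, 3.77 and 3.61, and each neighbour in that order overlapped the next. Hdc had the order Erg fl/fl MPPs, Erg +/- HSCs, Erg -/- MPPs and Erg +/+ HSCs, at 5.53, 5.19, 5.16 and 5.08, again with overlap between all neighbours. Il6ra ran from 6.41 in Erg +/- HSCs over 6.26 in Erg -/- MPPs and 6.17 in Erg fl/fl MPPs to 6.16 in Erg +/+ HSCs, and no neighbours in that order were separate. The range over all 12 arrays was 4.92 log2 units for Mcpt8, 2.01 for Ms4a2, 0.98 for Hdc and 0.94 for Il6ra.

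The control groups give the third comparison, Erg fl/fl MPPs against Erg +/+ HSCs, which shares the Erg fl/fl arrays with the first and is a description for the same reason. The difference of Mcpt8 was 4.13 on the log2 scale (SE 0.403), or 17.5-fold higher in Erg fl/fl MPPs, and 0 of the 9984 genes had a larger one. Ms4a2 differed by 0.94 (SE 0.313), or by 0.50 without Erg fl/fl replicate 1, and Hdc by 0.45 (SE 0.199). For Mcpt8, Ms4a2 and Hdc all Erg fl/fl MPP arrays lay above all Erg +/+ HSC arrays, which was so for 18.5% of all genes, while 8.54% lay wholly below and 27% did not overlap in either direction. Il6ra differed by 0.02 (SE 0.217) with overlapping groups. Over all genes 1.28% passed, 0.651% in the higher and 0.631% in the lower direction, 22.3% had an unadjusted p under 0.05, and the median gene was higher by 0.12. B cell markers were higher beside Mcpt8, as 3 of the 6 measured, Ebf1, Vpreb1 and Igll1, passed (limma, adjusted p = 0.0114, 0.0259 and 1.13e-05). The mean level of the 6 lay between 6.50 and 7.0 in Erg fl/fl MPP arrays and between 4.91 and 5.52 in Erg +/+ HSC arrays. Of 5 endothelial and stromal markers 1, the matrix protein gene Sparc, was lower in Erg fl/fl MPPs (limma, adjusted p = 0.0351). The part of these markers in the difference of Mcpt8 was not tested. The controls differ as well in the floxed allele, in population and, as far as the labels say, in pIpC, which cannot be told apart.

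Taking the HSC difference from the MPP difference gives -3.51 for Mcpt8 (SE 0.570), -0.80 for Ms4a2 (SE 0.442), -0.48 for Hdc (SE 0.282) and -0.17 for Il6ra (SE 0.307) on the log2 scale. Without Erg fl/fl replicate 1 this value was -0.35 for Ms4a2. These values contain the MPP difference and so were not tested.

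How the 4 genes vary together was described over the 12 arrays, which share their normalisation and the same 4 groups. Mcpt8 correlated with Ms4a2 at Pearson r = 0.744 (Spearman rho = 0.615) and with Hdc at r = 0.740 (rho = 0.434), and Ms4a2 with Hdc at r = 0.551 (rho = 0.713). After the group means were taken out these values were 0.380, 0.564 and 0.154. Il6ra had r between -0.270 and -0.0901 with the other 3 genes. Mcpt8, Ms4a2 and Hdc thus shared their high group, Erg fl/fl MPPs, while the array with the highest value differed, being replicate 1 for Mcpt8 and Ms4a2 and replicate 3 for Hdc.

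The genes most like each of the 4 were taken by Pearson r over the 12 arrays, among named genes with an SD of at least 0.5 (1182 to 1183 genes). For Mcpt8 these were Igll1, which encodes a part of the pre-B cell receptor (r = 0.962, rho = 0.874), Ldlrad4 (r = 0.926, rho = 0.874), the B-lineage transcription factor gene Ebf1 (r = 0.897, rho = 0.462), Gimap7, a lymphocyte GTPase gene (r = 0.877, rho = 0.727), and Ccl3, a chemokine gene (r = 0.871, rho = 0.797). Their correlation with Mcpt8 within groups was 0.735 for Ldlrad4 and 0.718 for Ccl3, but 0.291 for Igll1, 0.164 for Ebf1 and 0.0585 for Gimap7. Ccl3 was at 6.37, 5.30 and 5.10 in Erg -/- MPPs, against 7.92, 5.95 and 6.75 in Erg fl/fl MPPs, and like Mcpt8 it was lowest in replicate 2 among the Erg fl/fl arrays. Igll1 was at 5.95, 6.05 and 6.11 in Erg -/- MPPs, against 7.95, 7.77 and 8.04 in Erg fl/fl MPPs, where replicate 2 was the lowest too but close to the other arrays.

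**Figure D3:**
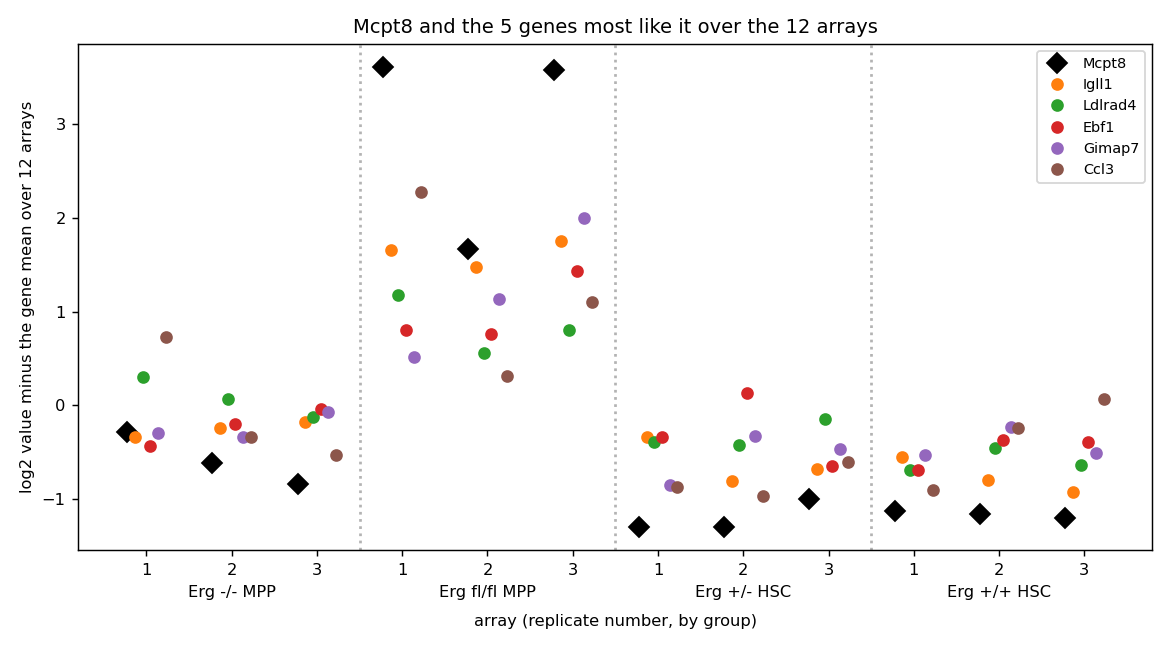
Mcpt8 (black diamonds) and the 5 genes most like it in the 12 arrays, each as its log2 value minus its own mean over the 12 arrays. Replicate numbers are on the horizontal axis by group, and points are shifted sideways for legibility. All 6 genes have their highest group mean in Erg fl/fl MPPs, and in that group replicate 2 is the lowest array for each of them except Gimap7.

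For Ms4a2 the most like genes were Ifi209 (r = 0.940, rho = 0.874), the C-type lectin gene Clec4b2 (r = 0.903, rho = 0.706), Rbl1, Dpep2 and H4c3 (r = 0.835 to 0.839). Ifi209 was at 5.06, 4.37 and 3.68 in Erg -/- MPPs, against 7.01, 4.73 and 4.43 in Erg fl/fl MPPs, so that its highest array was that of Ms4a2. The others were highest in that same array, Erg fl/fl replicate 1, and rho was 0.210 for H4c3. For Hdc they were Uprt (r = 0.884, rho = 0.881), S100a5, Nup43, Wdr53 and Ebf1 (r = 0.744 to 0.793). For Il6ra they were Atp1b2 (r = 0.741, rho = 0.524), the Kell blood group gene Kel (r = 0.731, rho = 0.622), Wdr54, Hdhd3 and Slfn3 (r = 0.670 to 0.726). For the last 3 rho was 0.0699, 0.280 and 0.601. Il6ra and each of these genes were highest in Erg +/- HSC replicate 1, so 1 array weighs heavily in these values of r. Ebf1 was the 1 gene named for more than 1 of the 4.

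Genes of related pathways were then counted, 62 of 169 listed genes having a value. In MPPs 0 of the 62 passed in either direction (limma, adjusted p of 0.946 or more), and 4 had an unadjusted p under 0.05, which 4.79% of all genes had. These 4, named after their values were seen, all had negative differences: the small GTPase gene Rab44, the chemokine gene Ccl3, the granule membrane gene Cd63 and the transcription factor gene Irf8. Of the 62 genes 25 had positive and 37 negative differences, with a median of -0.08 on the log2 scale, against 0.00 over all genes. Negative differences were found for 50.6% of all genes. Groups did not overlap for 12.9% of the 62, with 2 genes higher and 6 lower in Erg -/- MPPs. Of all genes 10.5% had groups apart, 4.36% higher and 6.1% lower.

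Among the granule serine proteases that neighbour Mcpt8 in the genome, 5 of 14 had a value, and 0 passed in MPPs. Mcpt1, a mast cell protease, was at 3.12, 2.80 and 3.27 in Erg -/- MPPs, against 2.69, 2.74 and 2.70 in Erg fl/fl MPPs, a difference of 0.35 (limma, adjusted p = 0.998) on a dim probe set. All Erg -/- arrays of Mcpt1 lay above all its Erg fl/fl arrays. The granzyme gene Gzmc differed by -0.42 (limma, adjusted p = 0.998), and the list median was -0.02. These proteases are related in sequence, and whether probes of one bind transcripts of another is not known from the files.

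Of the other members of the MS4A family 5 of 16 had a value, with differences between -0.32 and 0.11 in MPPs, led by Ms4a6c, and 0 passed. Of the genes of IgE receptor signalling 6 of 21 had a value and 0 passed in MPPs. The kinase genes Prkcd and Btk had the smallest p-values among them, with differences of -0.36 and -0.22, and the list median was -0.17. The genes that encode the other chains of the receptor were not analysed here.

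Around Hdc, 5 of 11 genes of histamine handling had a value and 0 passed in MPPs. Hnmt, which encodes an enzyme that degrades histamine, was at 5.22, 5.11 and 5.11 in Erg -/- MPPs, against 5.79, 5.92 and 5.84 in Erg fl/fl MPPs, a difference of -0.70 with groups that did not overlap (limma, adjusted p = 0.998). In HSCs Hnmt spread widely, from 5.05 to 6.54 in Erg +/- and from 5.93 to 7.51 in Erg +/+ arrays. The histamine receptor gene Hrh4 differed by -0.25 in MPPs. Of the decarboxylase and polyamine genes 4 of 12 had a value and 0 passed, with Ddc at 0.11 and Azin1 at -0.20.

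Around Il6ra, 7 of 18 genes of interleukin 6 family signalling had a value and 0 passed in MPPs. Adam17, a protease that sheds the interleukin 6 receptor from the cell surface, differed by -0.42 with groups that did not overlap (limma, adjusted p = 0.998). The phosphatase gene Ptpn11 differed by -0.24, and the list median was 0.03. Of the cytokine receptors of mast cells and basophils 4 of 16 had a value, all with negative differences in MPPs (median -0.18) and 0 passing. Il1rap, the shared chain of the interleukin 1 and interleukin 33 receptors, differed by -0.43 and the transforming growth factor receptor gene Tgfbr2 by -0.18.

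Of the transcription factors 11 of 23 had a value, and of surface and mediator genes 15 of 30. In MPPs 0 of these passed. Irf8, a factor of monocyte and dendritic cell fate that is also active in basophil and mast cell progenitors of the mouse, was at 6.07, 6.13 and 6.24 in Erg -/- MPPs, against 6.81, 6.48 and 6.70 in Erg fl/fl MPPs, a difference of -0.52 (limma, adjusted p = 0.998). Rab44, a gene of granule release in mast cells, was at 6.51, 6.06 and 6.28 in Erg -/- MPPs, against 7.96, 6.81 and 7.04 in Erg fl/fl MPPs, a difference of -0.99 (limma, adjusted p = 0.946). For both genes all Erg -/- arrays lay below all Erg fl/fl arrays. Mrgprb2, on a dim probe set, went the other way, with all Erg -/- arrays above all Erg fl/fl arrays. Its difference was 0.32 (limma, adjusted p = 0.998).

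In HSCs 0 of the 62 genes passed (limma, adjusted p of 0.559 or more), and 9 had an unadjusted p under 0.05, which 6.32% of all genes had. Groups did not overlap for 14.5% of the 62, against 10.4% of all genes. Their median difference was 0.02, as it was over all genes. Between the controls 44 of the 62 had higher means in Erg fl/fl MPPs than in Erg +/+ HSCs and 18 lower. Of all genes only 37.6% were lower there, so most genes shared that direction. Of the 62, 2 passed as higher and 0 as lower, against 0.651% and 0.631% of all genes. Ccl9, a chemokine gene, was at 7.71, 6.84 and 6.45 in Erg fl/fl MPPs, against 4.52, 4.82 and 4.88 in Erg +/+ HSCs, a difference of 2.26 on the log2 scale (limma, adjusted p = 0.0274). Irf8 was at 6.81, 6.48 and 6.70 in Erg fl/fl MPPs, against 5.18, 5.72 and 5.96 in Erg +/+ HSCs, a difference of 1.05 (limma, adjusted p = 0.0364). Both calls were lost when Erg fl/fl replicate 1, Erg fl/fl replicate 2 or Erg +/+ replicate 1 was left out. Ccl9 was lost too when Erg +/+ replicate 3 was left out, and Irf8 when Erg fl/fl replicate 3 or Erg +/+ replicate 2 was, with adjusted p up to 0.077 for Ccl9 and 0.113 for Irf8. Irf8 is also on the list of monocyte and macrophage markers. Groups did not overlap for 40.3% of the 62, against 27% of all genes, and the median of the 62 was 0.20, against 0.12 over all genes.

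**Figure D4:**
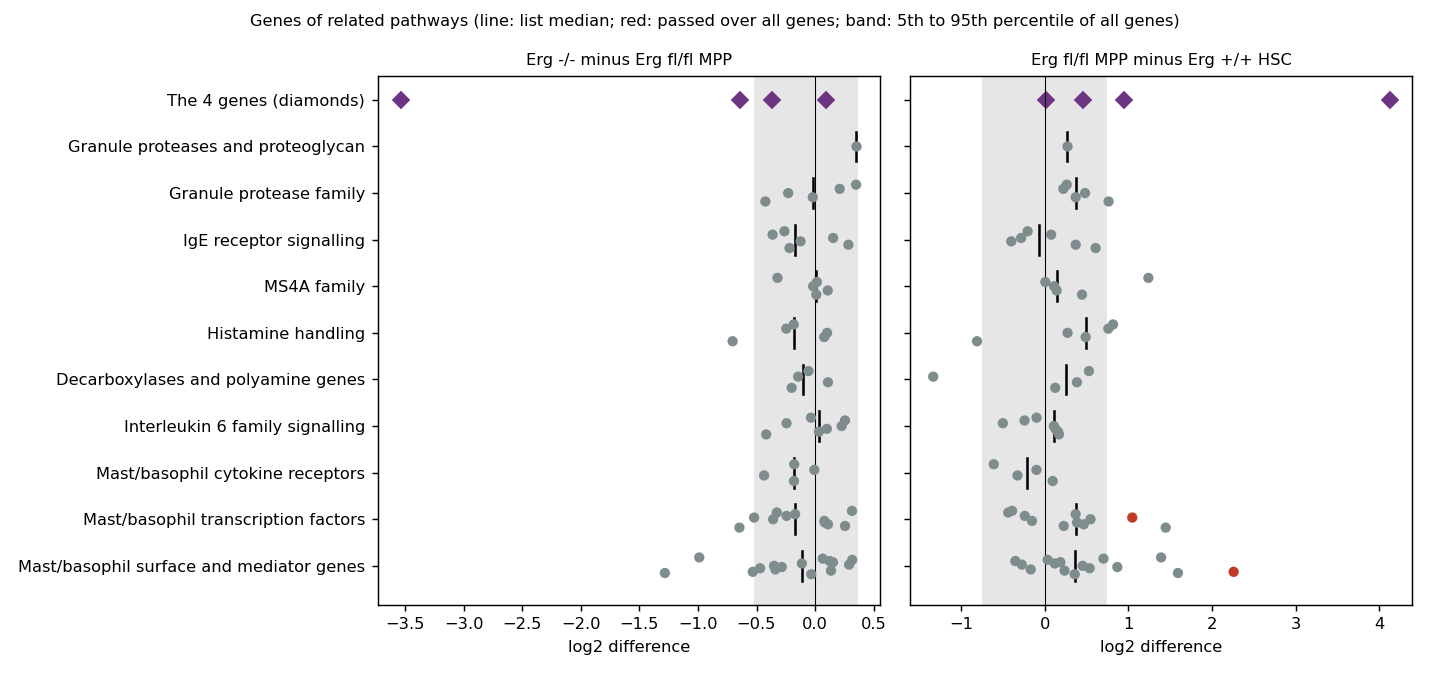
Log2 differences of the 62 measured genes of the pathway lists, Erg -/- minus Erg fl/fl MPPs on the left and Erg fl/fl MPPs minus Erg +/+ HSCs on the right. Points are genes (red where limma called them over all genes), black lines are list medians, diamonds are Mcpt8, Ms4a2, Hdc and Il6ra, and the grey band holds the 5th to 95th percentile of all genes. On the left 0 points are red and Mcpt8 at -3.54 lies far outside the band, and on the right the red points are Irf8 at 1.05 and Ccl9 at 2.26.

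Markers of other cell types were measured beside these genes in the MPP comparison. Of the B cell markers 6 of 13 had a value and 2, Vpreb1 and Igll1, fell in Erg -/- MPPs (limma, adjusted p = 0.00326 and 0.000442). The mean level of the 6 lay between 5.05 and 5.40 in Erg -/- MPP arrays and between 6.50 and 7.0 in Erg fl/fl MPP arrays. Vpreb1, with a difference of -4.75, weighs most in that mean. The median difference of the 6 was -0.98, with 5 negative, among them Pax5 at -0.19, and 1 positive, Blnk at 0.12. Of the T and NK cell markers 5 of 14 had a value and 1, the cytotoxic granule gene Nkg7, fell (limma, adjusted p = 0.0274), with mean levels of the 5 between 4.92 and 5.33 in Erg -/- and between 5.46 and 5.73 in Erg fl/fl arrays. The median difference of these 5 was -0.01, and the lower mean comes from Nkg7, at 5.90, 6.23 and 5.57 in Erg -/- MPPs, against 9.36, 8.82 and 8.66 in Erg fl/fl MPPs. The part of these markers in the difference of Mcpt8 was not tested.

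For markers of the other cell types 0 genes passed in MPPs. Of the eosinophil markers 5 of 10 had a value and 0 passed in MPPs, with mean levels between 5.58 and 5.88 in Erg -/- and between 5.21 and 5.61 in Erg fl/fl arrays. Of the neutrophil and granulocyte precursor markers 3 of 14 had a value and 0 passed, with mean levels between 5.33 and 5.48 in Erg -/- and between 5.27 and 5.33 in Erg fl/fl arrays. Of the monocyte and macrophage markers 8 of 14 had a value and 0 passed, with mean levels between 5.86 and 6.00 in Erg -/- and between 5.79 and 6.12 in Erg fl/fl arrays. Megakaryocyte (3 of 10), erythroid (7 of 15) and endothelial and stromal markers (5 of 12) had 0 calls in MPPs, and all 7 erythroid markers had positive differences, with a median of 0.40. Negative differences in MPPs were found for 50.6% of all genes.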

How the data were processed

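RNA of 12 samples of sorted cells was profiled on Affymetrix gene arrays after amplification of 20 ng of total RNA, per the labels. The deposited values are log2 values from RMA in the package affy, per the submitters' processing notes, with no version. RMA subtracts background and is meant to give arrays a common distribution, so a difference is relative to the other probe sets. The deposited arrays did not fully share 1 distribution. Their 25th percentiles were 4.17 to 4.26 in MPP arrays and 3.98 to 4.09 in HSC arrays. The notes do not say whether all 12 arrays were normalised in 1 run. Of 18719 probe sets 10657 have 1 gene symbol in the platform annotation, 523 several and 7539 none. Each gene was represented by its highest-mean probe set, which gave 9984 genes (9933 gene IDs matched RefSeq). Promoters and coordinates are RefSeq's for GRCm38.p6, and the 4 genes all matched.

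Comparisons came from 1 limma model with a mean per group (limma 3.58.1, R 4.3.3; 8 residual and 4.35 prior degrees of freedom), two-sided, adjusted by Benjamini-Hochberg over 9984 genes at 0.05. Separate animals are not stated for the replicates, and the p-values then reflect only how these samples spread, which may be technical. Arrays carry no read depth, and 3 per group limits the precision. Tested on simulated data, the HSC fit called 67 of 100 genes at a shift of 1 log2 unit, 98 of 100 at a shift of 2, and 11 genes with no shift, and the MPP fit called 56, 97 and 9. The simulation drew independent normal noise for each gene and shifted 100 genes of each size together, which eases the Benjamini-Hochberg cut-off. The data had 2 calls in HSCs and 8 in MPPs, so these rates are likely too high for them. The genes and lists were chosen with earlier results of these data known. Named genes are the 4, up to 4 called genes per pathway list and comparison or, where a list had none, the 2 with the smallest p in MPPs, and the 5 most like each of the 4. Vpreb1, Igll1, Ebf1, Nkg7, Sparc, Rab44, Cd63, Cd200r3, Gata1, Mrgprb2 and the pathway genes at an unadjusted p under 0.05 in MPPs were named for calls, markers or values after their values were seen. Results were recomputed with each array left out, with the 2 low-weight arrays out together, on all probe sets, on the compared arrays alone, with array weights, with a robust intensity trend, after median centring or renewed quantile normalisation, with probe sets averaged, above the 25th or 50th percentile, and blocked by replicate number. Erg itself is not reported here.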

Additional observations from a re-analysis of the deposited data

Results flagged for a closer look

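Ldlrad4, the gene second most like Mcpt8 over the 12 arrays, had groups that did not overlap in either population, with differences of opposite sign. All Erg -/- MPP arrays (5.60, 5.36 and 5.16) lay below all Erg fl/fl MPP arrays (6.47, 5.86 and 6.09), whereas all Erg +/- HSC arrays (4.90, 4.87 and 5.15) lay above all Erg +/+ HSC arrays (4.60, 4.83 and 4.65). The difference was -0.76 in MPPs (limma, adjusted p = 0.455) and 0.28 in HSCs (95% interval -0.14 to 0.69; limma, adjusted p = 0.909), so neither passed. The difference of effects was -1.04 on the log2 scale and did not pass over all genes (limma, adjusted p = 0.748). Of the 9984 genes 31, or 0.31%, had groups apart in opposite directions in this way, and 96 genes were looked at here. Ldlrad4 was picked for its likeness to Mcpt8 over these same arrays, which favours lower values in Erg -/- than in Erg fl/fl MPPs. The HSC part of the pattern is not favoured in this way, as Mcpt8 averaged 4.38 in Erg +/+ and 4.34 in Erg +/- HSCs. Because of the MPP part the share over all genes is no fair measure for Ldlrad4, and nothing is concluded from the pattern.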

How the results depend on the processing

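Values of the 4 genes in the MPP comparison moved by less than 1 SD (the pooled SD of both MPP groups) under every alternative that gave a value, although that of Ms4a2, whose pooled SD is set by 1 high array, was -0.64 with all arrays and -0.19 without Erg fl/fl replicate 1, and 0 of the 4 passed in HSCs under any of them (adjusted p from 0.661). The 25th percentile filter removed Ms4a2, and the 50th percentile filter Ms4a2, Mcpt8 and Hdc. The difference between the MPP and HSC effects was judged by the pooled SD of all 4 groups, which the HSC groups make smaller for Mcpt8 and Ms4a2. By that SD it moved for Mcpt8, which ran from -4.15 to -3.18 with 1 array left out. In MPPs alone Mcpt8 ran over a like range, from -4.18 to -3.21. It moved as well for Ms4a2, which ran from -1.07 to -0.35 and was -0.26 with both low-weight arrays out (replicate 1 of Erg fl/fl MPPs and of Erg +/+ HSCs). In the controls 2 pathway genes were called, 3 with the replicate block, either percentile filter, repeated quantile normalisation or the robust trend, 0 over all probe sets, 0 without those 2 arrays, and 0 to 1 with 1 array left out. Over all genes 128 were called there, up to 174 with array weights or repeated quantile normalisation, 61 with only the arrays compared, 60 over all probe sets, 61 without those 2 arrays, and 47 to 150 with 1 array left out. The difference of effects had 0 to 4 calls in place of 2. In HSCs 0 to 8 genes were called in place of 2, and in MPPs 4 to 9 in place of 8. Deviations of same-numbered arrays correlated between -0.0852 and 0.0862 in MPPs and between -0.0326 and 0.0555 in HSCs. These values show no strong signal shared by replicate number, but with 3 arrays per group they cannot exclude a pairing. With the replicate block Mcpt8 differed by -3.54 in MPPs and by -0.04 in HSCs (limma, adjusted p = 0.993), and 1 gene was called in HSCs in place of 2. Signal over background limits Ms4a2 most, the dimmest of the 4. The causes of these shifts were not tested.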

Other observations

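In the HSC comparison all 7 measured erythroid markers had positive differences, with a median of 0.97 on the log2 scale, and 0 passed (limma, adjusted p of 0.318 or more, 4 with an unadjusted p under 0.05, which 6.32% of all genes had). Their mean level lay between 6.76 and 7.01 in Erg +/- HSC arrays and between 5.75 and 6.17 in Erg +/+ HSC arrays, without overlap. Endothelial and stromal genes were lower in Erg +/- arrays in 5 of 5 cases (median -0.67), and 1 of them, Sparc, passed, with a difference of -2.08 (limma, adjusted p = 0.0401). Their mean level lay between 5.58 and 5.79 in Erg +/- HSC arrays and between 6.43 and 7.15 in Erg +/+ HSC arrays, again without overlap. Over all genes in HSCs 46.2% had a negative difference, 0.01% passed as lower and 10.4% had groups that did not overlap. The share of gene lists with mean levels apart was not computed. Kel, a red cell surface gene among those most like Il6ra by r, averaged 5.71 ± 0.727 in Erg +/- HSCs and 4.57 ± 0.124 in Erg +/+ HSCs (SD, n = 3 each).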
